A study of Danio rerio with 4 samples.

Results

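The genes described here are 10 markers of neutrophils and macrophages, the phagocytes of the innate immune system. They are mpx and lyz for neutrophils, mpeg1.1, csf1ra and marco for macrophages, and spi1b, ptprc, coro1a, lcp1 and c5ar1, which leukocytes share more widely. They were chosen by name from 14434 gene symbols on the array, with earlier results of these data known. Their contrast with all genes is therefore a description. The annotation used here assigned a probe to 8 of the 10, with 12 probes in all. lyz and ptprc had no probe under their names or gene identifiers and are not analysed here.

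Gene expression was measured in whole hearts that had been dissected by hand from 72 hpf zebrafish embryos (hours post fertilization). There were 2 WT samples and 2 samples of ccm2 m201 mutants, each a pool of hearts hybridised to 1 single-colour Agilent array. Ccm2 acts as a scaffold within the CCM complex, named for cerebral cavernous malformations, in endothelial cells, and the comparison asked which cardiac genes depend on it. No agent or transgene is named in the titles, sources or genotypes, but the description of both mutant samples mentions Bmp2b overexpression, and the labels do not settle whether it applies. Separate clutches are not stated for the pools, and the p-values therefore cover only the spread among these 4 samples.

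Neutrophils and macrophages of the early zebrafish embryo come from myeloid progenitors under the control of Pu.1, the transcription factor encoded by spi1b. Neutrophils carry granules with peroxidase and lysozyme and reach wounds quickly, whereas macrophages depend on the Csf1 receptor and take up dead cells and microbes through scavenger receptors. Both move by remodelling actin, and both circulate, crawl through tissue or settle in organs, the heart included. In RNA from whole hearts, a change in the number of such cells and a change in RNA per cell cannot be told apart.

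Between 54.0% and 55.9% of the 43803 features of an array exceeded background clearly ("well above background" in the scanner software), and none was saturated. The cardiac identity of the tissue was evident on all 4 arrays from bright cardiomyocyte genes such as myl7, at log2 signals of 13.9 to 14.4. ccm2 itself, measured by its brighter probe, was at 5.45 and 5.79 in WT and 5.16 and 4.92 in mutants. Its log2 difference of -0.58 ± 0.22 (SE) was not significant (limma adjusted p = 0.168), and these probes do not show whether the mutant transcript is functional.

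All values below are log2 processed signals, scaled so that the 75th percentile is the same on each array, unless the raw signal is named. Differences are mutant minus WT with the SE of limma's fit over 26872 probes, n = 2 arrays per group, and a gene passed at an adjusted p below 0.05. Of the 8 measured members, 7 passed the filter on dim probes on all 4 arrays, and these 7 rose in ccm2 mutant hearts. Over the whole array 8.09% of 11536 tested genes passed as higher and 9.02% as lower. The differences of the 7 ranged from 1.94 to 2.64, with a median of 2.23, beside a median of -0.04 over all tested genes. c5ar1, the eighth, also rose, but it entered the test through the mutant arrays alone and so had to differ. In the 7 other members both mutant arrays lay above both WT arrays, an arrangement seen in 32.6% of tested genes.

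**Figure D1:**
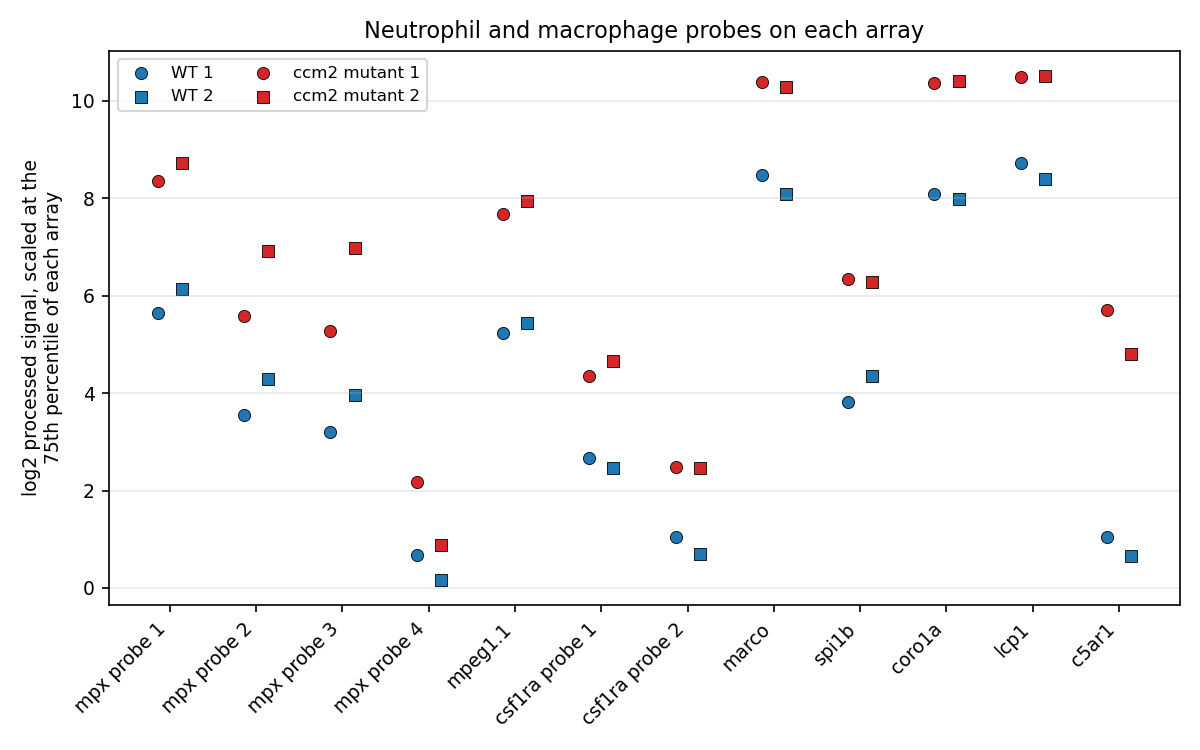
Log2 processed signal, scaled at each array's 75th percentile, of the 12 probes for the 8 measured members on the 2 WT arrays (blue) and the 2 ccm2 mutant arrays (red). Each point is 1 array. For every probe both red points lie above both blue points. c5ar1 and csf1ra probe 2 entered the test through the mutant arrays alone and so had to differ, and mpx probe 4 was not tested. Counted by gene, with its brightest tested probe, this arrangement was seen in 32.6% of tested genes. mpx probe 4 and csf1ra probe 2 were not well above background on any array.

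mpx encodes myeloperoxidase, the granule enzyme that marks zebrafish neutrophils. Its brightest probe read 5.64 and 6.14 on the WT arrays and 8.35 and 8.72 on the mutant arrays. The groups did not overlap, and the lower mutant array was 2.21 log2 units above the higher WT array. The difference was 2.64 ± 0.27 (SE), a 6.24-fold rise (limma adjusted p = 0.0154). With a normexp background model fitted to raw signals in place of the authors' background subtraction, it was 1.91 and still passed (limma adjusted p = 0.00355). Here and wherever normexp is named, an offset of 50 was added to the signals. That offset by itself shrinks the log2 differences of dim probes, so normexp values do not show the effect of the background model alone. Unprocessed, the same spot had raw median signals of 71.0 and 102.5 in WT and 395.5 and 551.0 in mutants.

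The other probes of mpx were dimmer and less even between the mutant arrays. The second gave 3.55 and 4.30 in WT against 5.58 and 6.92 in mutants, a difference of 2.33 ± 0.57 (SE, limma adjusted p = 0.0713). The third gave 3.2 and 3.95 against 5.27 and 6.98, a difference of 2.55 ± 0.69 (SE, limma adjusted p = 0.0865). Neither passed, and in both the second mutant array was well above the first, with SDs of 0.94 and 1.21 between mutant arrays. The fourth probe was not well above background on any array and was not tested, and on the raw scale its WT and mutant signals overlapped, at 26.0 and 22.0 against 27.0 and 25.0. Averaged over its 3 tested probes, mpx rose by 2.5 (limma adjusted p = 0.0466).

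mpeg1.1 encodes a perforin-like pore-forming protein and is the usual macrophage marker in zebrafish. It read 5.23 and 5.44 in WT and 7.69 and 7.95 in mutants. Arrays of 1 genotype were close together and the genotypes far apart, with SDs of 0.15 in WT and 0.18 in mutants. The difference was 2.48 ± 0.20 (SE), a 5.60-fold rise (limma adjusted p = 0.0108). With normexp it was 1.55 and still passed (limma adjusted p = 0.00271). Raw signals went from 62.5 and 69.0 to 254.0 and 337.0.

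marco encodes a class A scavenger receptor that binds bacteria and debris on macrophages. It read 8.48 and 8.08 in WT and 10.39 and 10.29 in mutants. Its difference was 2.06 ± 0.22 (SE), a 4.18-fold rise (limma adjusted p = 0.0158). Among the probes of its own array marco moved from percentiles of 80.9 and 78.7 in WT to 91.2 and 91.0 in mutants, a measure that does not depend on the scaling.

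csf1ra encodes a receptor for Csf1 and Il34 and is needed by macrophages, and also by the yellow pigment cells of zebrafish. Its brighter probe read 2.67 and 2.46 in WT, not well above background on either array, and 4.34 and 4.66 in mutants. The rise was at least 2.85-fold (limma adjusted p = 0.0168), with a difference of the measured means of 1.94. The second probe, not well above background on any array, gave 1.06 and 0.70 against 2.48 and 2.46 (limma adjusted p = 0.0226), and it entered the test through the mutant arrays alone. Raw signals of the brighter probe were 29.0 and 29.5 in WT and 44.0 and 51.5 in mutants, a modest step on a scale where the median spot of an array read 34.5 or 35. With normexp on raw signals the difference of csf1ra was 0.20 and did not pass (limma adjusted p = 0.233).

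spi1b encodes Pu.1, which directs progenitors to the myeloid fate. It read 3.82 and 4.35 in WT and 6.33 and 6.29 in mutants. The difference was 2.23 ± 0.25 (SE), a 4.68-fold rise (limma adjusted p = 0.0174), and the mutant arrays differed by far less than the WT arrays. With normexp on raw signals its difference was 0.78 and still passed (limma adjusted p = 0.0158). Raw signals of spi1b were 34.5 and 46.0 in WT and 113.0 and 104.0 in mutants.

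coro1a and lcp1 encode actin-binding proteins of leukocytes, coronin 1A and L-plastin. coro1a read 8.08 and 7.99 in WT and 10.36 and 10.40 in mutants. The arrays of a group lay close together, with SDs of 0.06 in WT and 0.03 in mutants, and the difference of 2.34 ± 0.17 (SE) was a 5.07-fold rise with the smallest adjusted p of the members (limma adjusted p = 0.00958). lcp1 read 8.72 and 8.40 in WT and 10.48 and 10.51 in mutants. It rose by 1.94 ± 0.20 (SE), or 3.83-fold (limma adjusted p = 0.0153). Raw signals of lcp1, at 441.0 and 393.0 in WT and 1726.5 and 1837.5 in mutants, were well above background on all 4 arrays.

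c5ar1 encodes the receptor for the complement fragment C5a, which attracts neutrophils and macrophages. It read 1.04 and 0.65 in WT, not well above background on either array, and 5.70 and 4.80 in mutants. The mutant arrays were uneven, with an SD of 0.64, but both were far above WT. The rise was at least 4.78-fold (limma adjusted p = 0.0117). Since c5ar1 entered the test through the mutant arrays alone, it had to differ, and its p-values are no test of the rise. The difference of the measured means was 4.40 ± 0.39 (SE), the largest of the members, and its size rests on WT values below detection. With the floor at the lowest signal taken as well above background it was 2.26 (limma adjusted p = 0.0208), and with normexp on raw signals 0.53, which did not pass (limma adjusted p = 0.116).

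**Figure D2:**
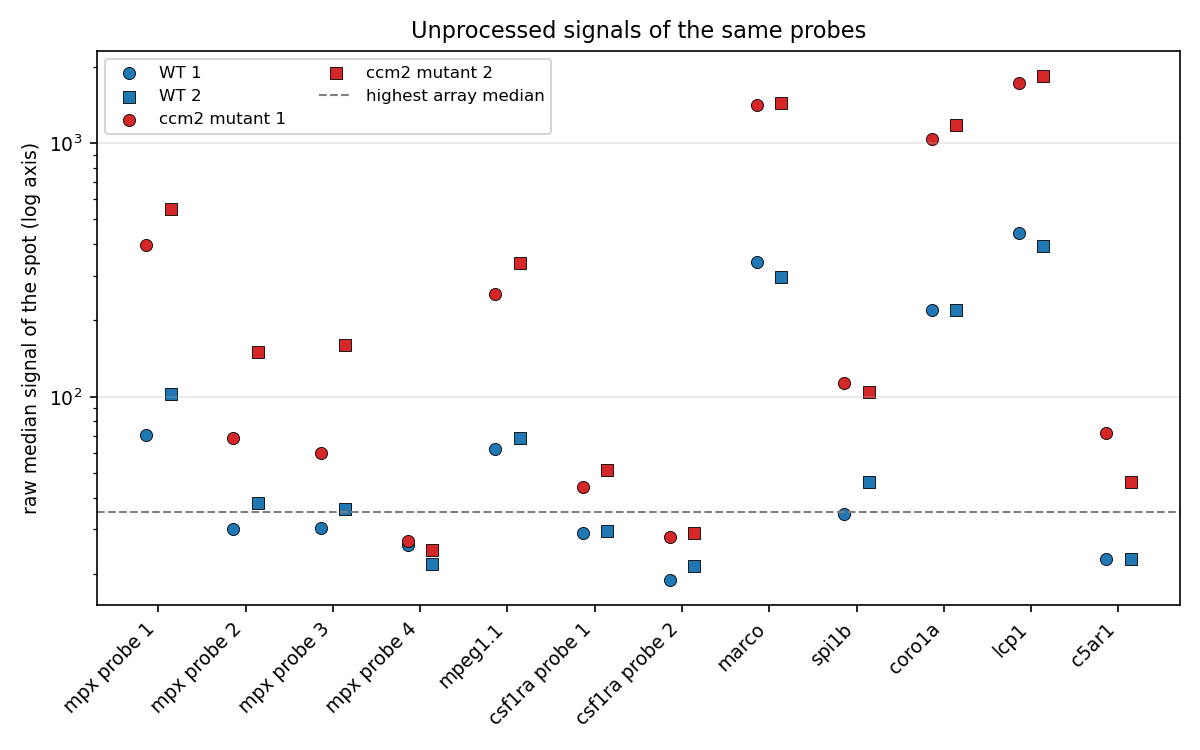
Raw median signal of each spot, before any processing and on a log axis, for the same 12 probes on the 2 WT arrays (blue) and the 2 ccm2 mutant arrays (red), with the highest array median of raw signal as a dashed line. marco, coro1a and lcp1 lie far above that line on all arrays. csf1ra, c5ar1, spi1b and mpx probes 2, 3 and 4 lie close to it or below it on at least 1 WT array.

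Set side by side, the neutrophil gene mpx rose by 2.64 and the macrophage genes mpeg1.1, marco and csf1ra by 2.48, 2.06 and 1.94 in log2 difference of measured means. The shared genes spi1b, coro1a and lcp1 rose by 2.23, 2.34 and 1.94. With mpx as the 1 measured neutrophil gene, a difference between the cell types was not tested.

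With any 1 array left out, the 7 members past the filter on all 4 arrays rose by 1.78 to 2.89. c5ar1, which had to differ, rose by up to 4.85. The calls depended on all 4 arrays, since few or none of the members passed with 1 left out. Over all genes the calls also fell each time, from 1974 with all 4 arrays.

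**Figure D3:**
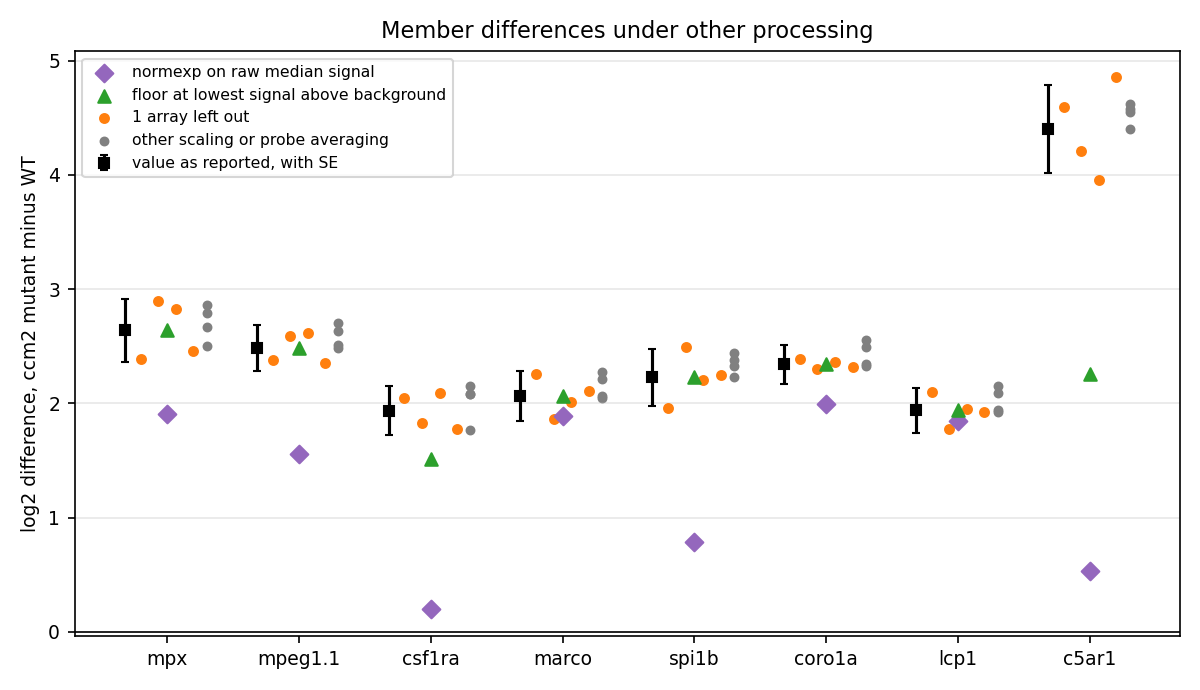
Log2 difference (mutant minus WT) of each member as reported, with its SE (black), and under other processing (coloured points). Points for left-out arrays and other scalings stay near the reported value, whereas normexp on raw signal gives 0.20 for csf1ra, 0.53 for c5ar1 and 0.78 for spi1b.

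Genes known from zebrafish neutrophils other than the members were higher in part. Of 20 listed, 15 had a probe and 10 were tested; 5 rose, 0 fell and 5 did not pass, with a median difference of 2.13. The metalloprotease gene mmp13a read 3.85 and 4.41 in WT and 8.92 and 8.62 in mutants, a 24.9-fold rise (limma adjusted p = 0.00789), and its difference was 4.64, or 2.85 with normexp on raw signals. adam8a, a membrane protease gene of leukocytes, read 8.57 and 8.54 against 13.01 and 13.01, a 21.9-fold rise (limma adjusted p = 0.00726). s1pr4, a sphingosine phosphate receptor gene, rose by 2.90 ± 0.45 (SE, limma adjusted p = 0.0302), a call that was lost with normexp (0.71, limma adjusted p = 0.0985). These genes are not confined to neutrophils, and mmp13a and mmp9, which rose by 2.61, are also made by other cells that remodel matrix. The chemokine receptor genes cxcr1 and cxcr2 of neutrophils were not well above background on any array.

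Macrophage genes other than the members had a median difference of 1.08, or 0.99 once dim genes are set to their bound. A difference from the neutrophil list was not tested. Of 26 listed, 21 had a probe, 18 were tested and 15 passed the filter on all 4 arrays; 6 of these 15 rose, and 0 of the 18 fell. cmklr1, a chemerin receptor gene, is not among these 6, since it passed the filter on only 1 of the 2 WT arrays. It was at least 6.58-fold higher in mutants (limma adjusted p = 0.0242), with a difference of 3.13, or 0.62 with normexp. slc7a7, an amino acid transporter gene of early macrophages, rose by 2.63 ± 0.47 (SE, limma adjusted p = 0.0401), although its WT arrays were apart at 5.10 and 3.89. With normexp it differed by 1.28, and it did not pass without a filter (limma adjusted p = 0.0588). The macrophage gene mfap4.1 rose by 2.40 ± 0.17 (SE, limma adjusted p = 0.00958), from 6.98 and 6.88 to 9.38 and 9.27. The complement C1q genes c1qb and c1qc, expressed by macrophages, rose by 1.48 and 1.08. c1qa, called higher, entered the test through the mutant arrays alone, and its call was lost with the floor (0.32, limma adjusted p = 0.412) and with normexp (0.093, limma adjusted p = 0.550). apoeb, prominent in microglia and also in other tissues, differed by 0.18 ± 0.40 (SE) and did not pass (limma adjusted p = 0.799). mpeg1.2, a paralogue of mpeg1.1, differed by 0.60 ± 0.18 (SE) and did not pass (limma adjusted p = 0.110).

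Myeloid transcription factors rose in part. Of 8 tested, 7 passed the filter on all 4 arrays; 3 of these 7 rose and 0 fell (median of the 8, 1.01; 0.59 once dim genes are set to their bound). spi1a, the second Pu.1 gene, rose by 2.12 ± 0.17 (SE, limma adjusted p = 0.0104), or by 1.40 with normexp. cebpb, a factor of myeloid activation that many tissues express, rose by 2.45 ± 0.36 (SE, limma adjusted p = 0.0279). With sample numbers as a replicate block the call of cebpb was lost (limma adjusted p = 0.0501). irf8, which directs macrophage fate in zebrafish, rose by 1.44 ± 0.21 (SE, limma adjusted p = 0.0268). runx1, a factor of blood stem cells and myeloid cells, was called higher but entered the test through the mutant arrays alone, and its call was lost with the floor (0.61, limma adjusted p = 0.307) and with normexp (0.12, limma adjusted p = 0.491). cebpa at -0.42, gfi1aa at -1.32 and ikzf1 at -2.34 had estimates below 0 and did not pass.

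Genes for the phagocyte oxidase, the enzyme of the respiratory burst, passed in few cases. Of 6 tested, 1 rose, 0 fell and 5 did not pass (median 0.85). ncf1, a cytosolic oxidase subunit gene, rose by 1.97 ± 0.39 (SE, limma adjusted p = 0.0482), a call that was lost with normexp (0.43, limma adjusted p = 0.0617) and without a filter (limma adjusted p = 0.0750). The membrane subunit genes cyba and cybb differed by 0.91 and 1.15 (limma adjusted p = 0.0859 and 0.0973), and the cytosolic subunit gene ncf4 by -0.95 (limma adjusted p = 0.115).

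Among 16 tested genes of leukocyte adhesion and signalling, 6 rose, 1 fell and 9 did not pass (median 0.86, also once dim genes are set to their bound). Of the 16, 12 passed the filter on all 4 arrays, and all 6 rises were among these. fcer1g and lyn entered the test through the mutant arrays alone and il10ra through the WT arrays alone. These had to differ and did not pass. itgb2, the shared chain of leukocyte integrins, read 3.87 and 3.87 in WT and 6.13 and 6.08 in mutants, a 4.71-fold rise (limma adjusted p = 0.00970). Its difference was 2.23, or 0.77 with normexp. fcer1gl, which encodes a signalling adaptor related to the Fc receptor gamma chain, rose 4.66-fold and the adaptor gene lcp2a 4.02-fold. fermt3b, an integrin activator gene of blood cells including thrombocytes, fell by 1.45 on the log2 scale (limma adjusted p = 0.0480). That call was lost with quantile normalization (limma adjusted p = 0.0511), unscaled values (0.0518) and no filter (0.0842).

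Ligands of these cells were measured in part. Of 15 listed, 8 had a probe and 5 were tested; 2 rose, 0 fell and 3 did not pass (median 0.39). csf1b, a ligand of the receptor encoded by csf1ra, read 4.01 and 3.54 in WT and 6.57 and 6.32 in mutants, a 6.36-fold rise (limma adjusted p = 0.0128), with a difference of 2.67, or 0.98 with normexp. il34, its other ligand gene, differed by 0.39 ± 0.23 (SE) and did not pass (limma adjusted p = 0.331). The growth factor gene tgfb1a rose by 2.15 ± 0.30 (SE, limma adjusted p = 0.0254). That call was lost with sample numbers as a replicate block (limma adjusted p = 0.0595). The inflammatory cytokine genes il1b and tnfa were not well above background on any array, and neither were il10 and il12ba.

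**Figure D4:**
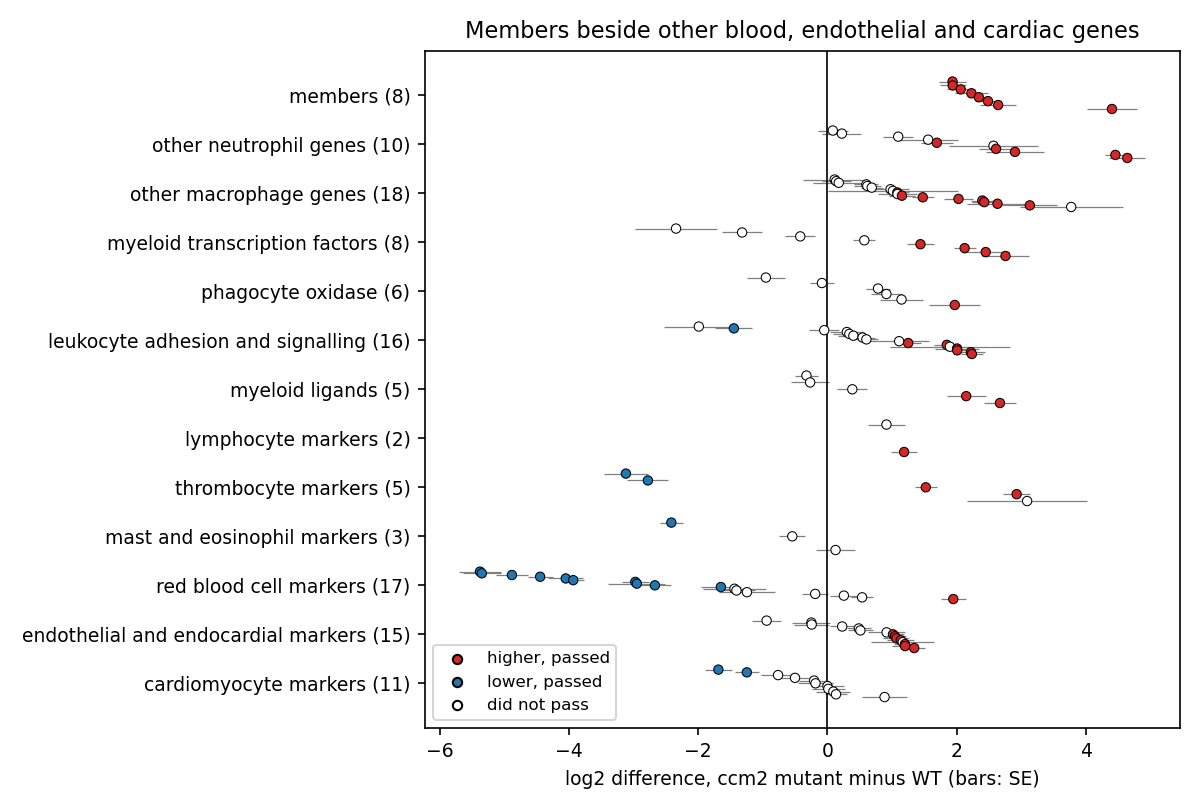
Log2 difference (mutant minus WT) with its SE for each tested gene of the members and of 12 other lists, with the number tested in brackets. Filled red points passed as higher, filled blue points passed as lower and open points did not pass. The 8 measured members lie between 1.94 and 4.40, and the red blood cell markers reach -5.37.

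Markers of other blood cells were given as a measure of what else the dissected hearts held. Of 17 tested red blood cell markers, 10 fell, 1 rose and 6 did not pass (median -2.67; -1.65 once dim genes are set to their bound). Of the 17, 15 passed the filter on all 4 arrays. The other 2, gata1a and tfr1a, both called lower, entered the test through the WT arrays alone and so had to differ. The summed level of all 17 red blood cell markers was 534 to 603 times the 75th percentile of the array in WT and 77.6 to 93.6 times in mutants. gata1a, the main transcription factor of red cell fate, read 7.02 and 6.43 in WT and was not well above background in mutants. It was at least 15.9-fold lower by the deposited signals, and with normexp on raw signals its log2 difference was only -1.49. slc4a1a and epb41b, genes of the red cell membrane, were 41.5-fold and 29.5-fold lower, and alas2, a heme synthesis gene, was 3.86-fold higher.

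Of 5 thrombocyte markers, itga2b, the defining integrin gene, was at least 3.81-fold lower and thbs1b 8.68-fold lower, whereas itgb3b was 2.87-fold higher. With normexp the differences of itga2b and itgb3b were -0.62 and 0.40 (limma adjusted p = 0.0271 and 0.0491). With sample numbers as a replicate block both calls were lost (limma adjusted p = 0.0518 and 0.0526), and that of thbs1b was kept (0.0385). selp, called higher, entered the test through the mutant arrays alone, and its call was lost with the floor (limma adjusted p = 0.0811) and with normexp (0.248). The coagulation factor gene f5, which the liver also expresses, did not pass (limma adjusted p = 0.108). Their summed level was 7.26 to 8.52 times the 75th percentile in WT and 10.8 to 11.4 times in mutants with f5. Without it, the sum was 5.62 to 6.78 times in WT and 0.836 to 1.23 times in mutants. Lymphocyte markers were near background: of 8 with a probe, 5 were not well above background on any array, among them the defining genes rag1 and rag2. Of the 2 tested, il7r did not pass, and zap70 entered the test through the mutant arrays alone. The call of zap70 as higher was lost with the floor (0.13, limma adjusted p = 0.746), without a filter (0.0759) and with a trended prior (0.127). Their summed level was 0.106 to 0.137 times the 75th percentile in WT and 0.163 to 0.166 times in mutants. Of 3 mast cell and eosinophil markers, the mast cell protease gene cpa5 and the histidine decarboxylase gene hdc did not pass, and gata2a, which endothelium also expresses, was 5.33-fold lower. Their summed level was 13.3 to 14.6 times in WT and 3.08 to 3.39 times in mutants with gata2a. Without gata2a it was 0.799 to 1.06 times in WT and 0.714 to 0.874 times in mutants.

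Endothelial and endocardial markers rose in 7 of 15 and fell in 0 (median 1.01): pecam1a rose 2.54-fold, esama 2.30-fold and egfl7 2.30-fold, with the calls of esama and egfl7 lost without a filter (limma adjusted p = 0.0729 and 0.0626). The other 8 did not pass, among them kdrl and cdh5, which differed by 0.23 and 0.49. Estimates were above 0 in 12 of the 15 and below 0 in nfatc1, sox7 and erg (-0.94, -0.25 and -0.24). The summed level of the endothelial and endocardial markers was 245 to 251 times the 75th percentile in WT and 396 to 453 times in mutants. Cardiomyocyte markers rose in 0 of 11 and fell in 2 (median -0.18), with nkx2.5 3.22-fold and ldb3a 2.37-fold lower, and their summed level was 1259 to 1384 times in WT and 1041 to 1366 times in mutants. The call of ldb3a was lost without a filter (limma adjusted p = 0.0626). With sample numbers as a replicate block, the calls of pecam1a, esama, egfl7, nkx2.5 and ldb3a were all lost (limma adjusted p of 0.0529 to 0.0752). The part of these cell types in the members' differences was not tested.

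Likeness of pattern was measured as the root mean square distance between log2 signals on the 4 arrays, each gene centred on its own mean. With 4 arrays this mainly matches the size of the difference between genotypes, and it is a description. Outside the members and lists, the genes nearest to mpx were tsnax, wu:fc93f10 and mlst8, at distances of 0.112, 0.141 and 0.147. Those nearest to mpeg1.1 were wu:fc93f10, acsl4b and swap70b, at 0.026, 0.036 and 0.070. mpeg1.1 was the second nearest of all tested genes to mpx, at 0.134, and c5ar1 the farthest of the members from both, at 1.04 and 1.06.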

How the data were processed

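The deposited intensity values are Cy3 processed signals, per the file headers made by the authors with Agilent Feature Extraction 10.5.1.1: background subtraction and detrending were done array by array, and dim spots carry surrogate values. They were not scaled between arrays, since each 75th percentile matched that in the header. In all 43803 features the series value table gave an identical intensity. The deposited raw median intensity served 1 alternative, and the deposited header file gave other values, the number of features well above background on each array. Per the labels, 200 ng of RNA with an integrity number above 8 was labelled for each sample.

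Spots of 1 probe were averaged on the log2 scale (43603 probes). Gene identifiers gave current symbols for 20133 features, accessions for 409, and the platform's symbol was kept for 519. A further 22742 features are unnamed here. The builds differ, so no coordinates are given, and no sequences are printed. From the log2 signals the 75th percentile of the array was subtracted, and 1 constant was added to all arrays. Probes over the 40th percentile on at least 2 arrays were tested. limma 3.58.1 in R 4.3.3 (lmFit, eBayes, residual df 2, prior df 1.97) was used two-sided, adjusted by Benjamini-Hochberg across the tested probes, and checked on simulated data. Each gene is given by its brightest tested probe on average. The header's number of features well above background set, by rank, which features count as such; if both arrays of a group stayed below it, the fold is a lower bound, computed against that limit or the probe's value, whichever is higher. Named genes of each list were up to 3 passing rises and 3 passing falls, or the 2 brightest; genes named beyond these were chosen after their values were seen. The members and lists were chosen with earlier results of these data known. Figures were drawn with matplotlib 3.10.9.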

Additional observations from a re-analysis of the deposited data

How the results depend on the processing

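The number of arrays, 2 per group, limits every call. With 1 array left out, limma called 0 to 2 of the 8 members, 0 to 8 other neutrophil and macrophage genes, against 13 with all arrays, and 0 to 552 genes across the array, against 1974; the lone array of a group is then assumed to vary like the other group. Without variance moderation limma called 0 members, 0 of those other genes and 0 genes, with 8, 15 and 3585 at an unadjusted p below 0.05. c5ar1 is among the 2 members called with an array left out and among these 8. c1qa is among the 13 and the 15 other genes. Both entered the test through the mutant arrays alone and so had to differ, and their part in these counts is no test of a rise. Across the array the calls were 2974 with normexp on raw signals, 3013 with a trended prior, 3219 at an adjusted p under 0.1, 1118 without a filter and 842 with sample numbers as a replicate block. With that block 7 members, c5ar1 among them, and 9 of the other genes, c1qa among them, were called. csf1ra was lost (limma adjusted p = 0.0519). The same sample numbers share no source in the labels, and their deviations correlated at 0.07 across probes. The filter at the 60th percentile on all 4 arrays tested 5 members and called 5, and called 8 of 11 other genes. It tests fewer genes and also changes the SE of genes it keeps, from 0.166 to 0.143 for adam8a. What part each has in these counts was not tested. No member changed direction in those of the 18 alternatives that tested it. Alternatives that change only the filter, the variance model, the threshold or the block leave the difference as it was. The identical series value table does so too. None of these could change a direction, and c5ar1 had to differ by its entry through the mutant arrays alone. Among all named genes, zap70 turned to -0.059 with normexp on raw signals, and the cause was not tested. Median scaling and unscaled values moved the median over all genes from -0.04 to 0.11 and 0.17, small beside the members' differences, and median scaling turned the split from 933 higher and 1041 lower genes to 1132 and 815, and unscaled values to 1291 and 769.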
